A study of Homo sapiens with 12 samples.

Results

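Keratin genes were followed in KYSE150 and KYSE410, established human lines of esophageal squamous carcinoma whose genotype is labelled WT throughout. A member was any gene whose symbol is KRT with a number and, optionally, the letter A, B or C. There were 39 such genes among the 34694 genes of the deposited tables, 30 in the KYSE150 table and 35 in the KYSE410 table, with 26 in both. A gene missing from one of the tables was counted as 0 in it. Of 55 symbols of this form in GENCODE 29, 16 were in neither table and were not analysed here. Each line was sampled at 21% oxygen (normoxia, labelled time 0) and at 0.5% oxygen for 48 h (hypoxia), with 3 messenger RNA libraries in each of the 4 groups. The series' design text instead gives 48 h for each oxygen level, which leaves the age of the normoxic cultures unclear. No label says whether replicates were grown apart, and a p-value here reflects only the spread among the libraries at hand, which may be technical.

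Keratins are the intermediate filament proteins of epithelial cells. Each filament is built from obligate pairs of a type I (acidic) and a type II (basic) keratin, so a cell needs both kinds. KRT8 and KRT18 form the pair of simple, single-layered epithelia, and KRT7 and KRT19 are further members of that group. KRT5 pairs with KRT14 in the basal layer of stratified epithelia, where KRT15 is also found. KRT6A, KRT6B, KRT16 and KRT17 are called stress keratins because they appear in wounded and hyperproliferative epithelium. KRT4 and KRT13 are the suprabasal pair of the normal esophageal lining.

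Among the 39 members, 22 were type I and 17 type II. On the FPKM scale (fragments per kilobase, a unit corrected for gene length and library size), 14 members reached a mean of 1 in at least 1 group, 7 of each type. The remaining 25 stayed at or below 0.986 FPKM in every library, and 22 members never reached 0.5. FPKM is a level per length, so genes can be set side by side. The type II genes and KRT18 lie together on chromosome 12 (hg38, GENCODE 29), from KRT80 (52168996 to 52192000) and KRT7 (52232520 to 52252186) through KRT5 (52514575 to 52520687) to KRT8 (52897187 to 52949954) and KRT18 (52948871 to 52952901). The other type I genes lie on chromosome 17, among them KRT10 (40818117 to 40822595), KRT15 (41513743 to 41522529), KRT14 (41582279 to 41586921), KRT16 (41609778 to 41615899) and KRT17 (41619441 to 41624842).

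Some neighbouring keratin genes share long stretches of sequence, which bears on how reads could be assigned. The stretch below is 90 bases of coding sequence around the start of the rod domain, read 5′ to 3′ from the GENCODE 29 transcripts, with capitals at each base that differs from KRT14. It is shown because KRT14 and KRT16 are identical over it, while KRT17 differed at 7 bases and KRT15 at 8.
KRT14: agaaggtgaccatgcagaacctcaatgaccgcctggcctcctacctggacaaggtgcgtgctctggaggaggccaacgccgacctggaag
KRT16: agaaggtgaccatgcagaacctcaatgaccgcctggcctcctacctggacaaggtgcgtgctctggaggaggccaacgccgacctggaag
KRT17: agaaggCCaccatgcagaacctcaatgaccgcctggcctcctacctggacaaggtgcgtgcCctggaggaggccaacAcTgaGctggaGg
KRT15: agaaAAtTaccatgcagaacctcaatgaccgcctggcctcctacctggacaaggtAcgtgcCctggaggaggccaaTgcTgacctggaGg

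The longest identical run between the coding sequences of KRT14 and KRT16 was 158 bases, against 59 between KRT14 and KRT17 and 47 between KRT14 and KRT15. Of all 50-base words in its transcripts, KRT14 shared 23.8% with any other gene, 11.2% with KRT16, and KRT15 shared 0.328% with any other gene. The KRT6 genes were closer still. KRT6A shared 35.2% of its words with KRT6C and 28.5% with KRT6B, and the following 90 coding bases are the same in all 3 genes.
KRT6A, KRT6B and KRT6C: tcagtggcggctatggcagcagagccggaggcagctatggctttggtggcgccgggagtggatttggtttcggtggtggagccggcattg

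KRT81 shared 38.4% of its words with KRT86, and KRT8 and KRT18 shared 22.1% and 21.7% of theirs with other genes, most of them their own pseudogenes. How the authors assigned reads that match several genes is not given in the sources used here, so KRT6A, KRT6B, KRT6C, KRT81, KRT86 and the split between KRT14 and KRT16 are uncertain. KRT86 also overlaps KRT7 on its own strand and KRT81 on the opposite strand, and KRT8 overlaps KRT18 on the opposite strand. The strand setting is not given either.

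Before the results, 1 library stood apart. KYSE150 normoxia replicate 2 differed from the other libraries of its group with an SD of 0.334 and 0.363 over genes on the log2 scale, where the remaining pairs of replicates gave 0.150 to 0.196, and values without it are given beside the calls it changes and for some other genes. Summed FPKM was 366156 to 413967 in KYSE150 normoxia, 377909 to 382990 in KYSE150 hypoxia, 351501 to 356994 in KYSE410 normoxia and 415926 to 425094 in KYSE410 hypoxia. All 8 epithelial markers had a mean of at least 1 FPKM in both KYSE410 groups, with sums of 395 to 482 FPKM, but only 5 did in KYSE150, with sums of 65.8 to 87.7. CDH1, the epithelial cadherin, was at 0.277 to 0.432 FPKM in KYSE150 normoxia. Fibroblast markers summed to at most 8.20 FPKM in any library, with COL1A2 listed at 0 in KYSE150 normoxia and KYSE410 hypoxia, and of 8 leukocyte and endothelial markers only CD68 reached a mean of 1.

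In normoxia the lines carried different keratins. KYSE410 had a simple pair and a basal set, while KYSE150 had a simple set with KRT7, and almost no basal keratin. KRT17 was present in both lines, with a mean of 213 FPKM in KYSE150 and 69.4 in KYSE410. Of 12 members tested in a joint limma fit of all 12 libraries, 7 were higher and 5 lower in KYSE410, where 79.6% of 12894 genes tested were called. To be tested, a gene had to average at least 1 FPKM over these libraries. KRT5, KRT14, KRT15 and KRT6A, all among the 7, did so only through KYSE410. Their direction was thus fixed by entry, and their calls add no support. KRT81, also among the 7, averaged under 1 FPKM over the KYSE150 libraries, so its call adds no separate support either. The shares called higher and lower over all genes were 40% and 39.6%. The tables were deposited separately, so these levels assume that FPKM is comparable between them. In bulk libraries fewer expressing cells and less RNA per cell cannot be told apart.

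**Figure D1:**
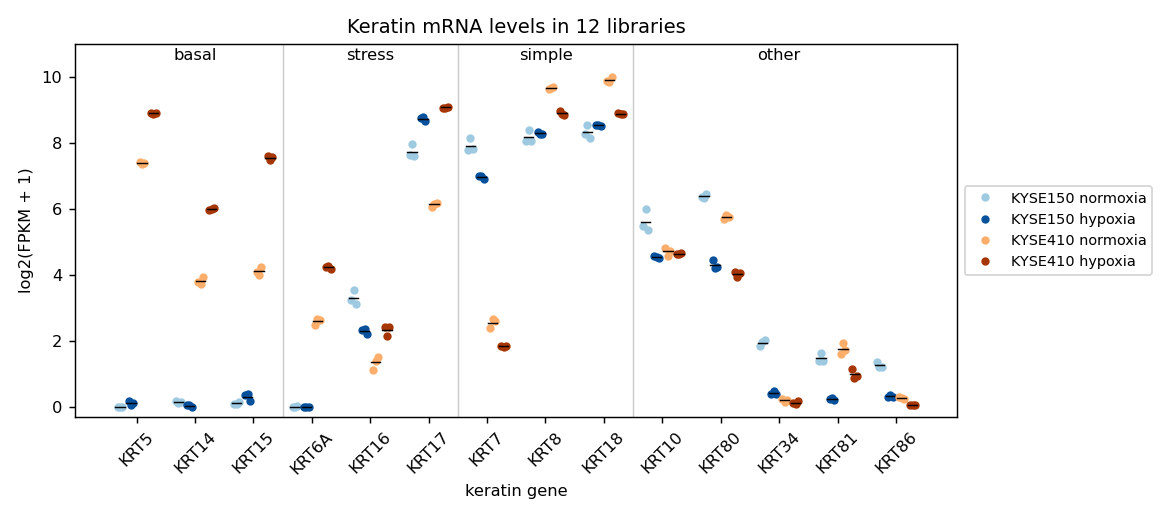
Levels of the 14 keratin genes with a group mean of at least 1 FPKM, as log2(FPKM + 1) on the vertical axis. Each dot is 1 of 12 libraries and each bar the mean of 3, coloured by line and oxygen level. The basal genes KRT5, KRT14 and KRT15 and the stress gene KRT6A sit near 0 in every KYSE150 library.

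KRT5, the type II keratin of basal cells, measured 170.8, 164.8 and 167.4 FPKM in the KYSE410 normoxia libraries and was listed at 0 in all 3 of KYSE150. KRT14, its type I partner, measured 12.9, 12.2 and 14.3 in KYSE410 and 0.126, 0.0741 and 0.105 in KYSE150. KRT15 measured 15.9, 15.0 and 17.9 against 0.0515, 0.0699 and 0.102. All 3 basal genes were thus far apart between the lines without overlap (79.4% of genes tested did not overlap), with KRT14 higher by 3.68 ± 0.06 (SE) and KRT15 by 4.0 ± 0.08 on the log2(FPKM + 1) scale (limma, adjusted p at most 1.85e-13). Since these genes were tested only through their KYSE410 values, the p-values are no separate support. Within KYSE410 the basal partners were unequal, with KRT5 at 12.8 ± 0.961 (SD, n = 3) times the level of KRT14.

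KRT7, a type II keratin of glandular epithelia, ran the other way. It measured 218, 282 and 225 FPKM in KYSE150 normoxia and 4.20, 5.31 and 5.13 in KYSE410, a log2 difference of -5.36 ± 0.10 (adjusted p = 8.18e-14). KRT8 measured 264, 338 and 265 in KYSE150 and 786, 803 and 836 in KYSE410. KRT18 measured 308, 373 and 283 in KYSE150 and 948, 923 and 1018 in KYSE410. The simple pair was therefore 2.80-fold and 3.0-fold more abundant in KYSE410, without overlap of the libraries. In normoxia KRT8 over KRT18 was 0.900 ± 0.0409 in KYSE150 and 0.840 ± 0.0256 in KYSE410 (SD, n = 3). The hypoxic ratio was 0.847 ± 0.0126 in KYSE150 and 1.01 ± 0.032 in KYSE410. In KYSE410 the hypoxic range of 0.981 to 1.04 lay above the normoxic 0.821 to 0.869. In KYSE150 the hypoxic range of 0.833 to 0.856 lay just below the normoxic 0.857 to 0.938. KRT19, the remaining simple keratin, did not exceed 0.259 FPKM in any of the 12 libraries.

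The stress keratins were split. KRT17 measured 197, 250.3 and 192 FPKM in KYSE150 normoxia and 66.3, 70.1 and 71.7 in KYSE410, a log2 difference of -1.60 ± 0.09. KRT16 was also lower in KYSE410 (8.45, 10.8 and 7.71 against 1.18, 1.61 and 1.88), by -1.96 ± 0.13. KRT6A, the usual type II partner of KRT16, was higher in KYSE410, at 4.53, 5.31 and 5.25 FPKM, and was listed at 0 in 2 of 3 KYSE150 libraries. KRT6B did not exceed 0.166 FPKM anywhere. KRT10, a suprabasal keratin of the epidermis, and KRT80, a type II keratin of differentiated epithelium, were lower in KYSE410 by -0.90 ± 0.13 and -0.62 ± 0.07. KRT81, a hair keratin at 1.62 to 2.82 FPKM, was higher by 0.27 (adjusted p = 0.0265), with overlapping libraries. The KRT81 call was lost without KYSE150 normoxia replicate 1 or 3 or KYSE410 normoxia replicate 2 (adjusted p = 0.0816, 0.0847 and 0.125).

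In hypoxia, KYSE150 had less KRT80, KRT7, KRT10, KRT16 and KRT34 mRNA and more KRT17 mRNA. Of 8 members tested in this line, 1 rose and 5 fell at an adjusted p under 0.05, where 62.3% of 12692 genes tested were called, 23.5% higher and 38.8% lower. Of the 5, KRT34 was tested only through its normoxic values. KRT8 and KRT18 did not pass. The median log2 change of all genes tested was -0.13, and 37.7% of the calls over all genes were rises. Scaling by the median of ratios removed that shift and gave 50.6%.

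KRT17 went from 197, 250.3 and 192 FPKM to 431, 443 and 406. Every hypoxic library was above every normoxic one, and the log2 change was 1.01 ± 0.12 (SE, adjusted p = 0.000174). It was 1.13 without normoxia replicate 2. KRT16, which lies close to KRT17 on chromosome 17 and belongs to the same stress group, went from 8.45, 10.8 and 7.71 to 3.99, 4.12 and 3.65, a fall with a log2 change of -1.01 ± 0.12 (adjusted p = 0.000220), or -0.88 without normoxia replicate 2. The 2 stress keratins that could be tested in KYSE150 thus moved in opposite directions.

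On the log2(FPKM + 1) scale, KRT80 had the largest fall among the 8 keratins tested in KYSE150. Its normoxic libraries read 81.6, 79.0 and 86.3 FPKM and its hypoxic ones 20.8, 17.5 and 17.9, with a log2 change of -2.08 ± 0.08 (adjusted p = 1.47e-06), a 4.40-fold lower mean. As a fold of mean FPKM the fall of KRT34, described next, was larger, at 8.39-fold. KRT7 went from 218, 282 and 225 to 127, 127 and 119, a change of -0.95 ± 0.11, or -0.83 without normoxia replicate 2. KRT10 went from 43.3, 62.7 and 40.04 to 22.8, 22.1 and 21.8, a change of -1.07 ± 0.15, or -0.88 without normoxia replicate 2. The groups did not overlap for any of these genes, where 69.6% of all genes tested did not overlap.

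KRT34, a type I hair keratin, measured 2.56, 2.88 and 3.11 FPKM in KYSE150 normoxia and 0.317, 0.394 and 0.309 in hypoxia, and fell by 1.52 ± 0.09 on the log2 scale. It reached the filter only through normoxia, so its direction was fixed by entry and its call adds no support. The type II hair keratins were below the filter of a mean of 1 FPKM in this line and were tested only when it was dropped. KRT81 then had a change of -1.23 (1.64, 2.10 and 1.62 to 0.183, 0.201 and 0.165 FPKM), KRT86 of -0.94 (1.59, 1.29 and 1.30 to 0.224, 0.281 and 0.236) and KRT83 of -0.50 (0.440, 0.722 and 0.416 to 0.0412, 0.188 and 0), with adjusted p of 0.000560, 0.000789 and 0.0171. These 4 hair keratins, of which KRT83 was picked out after its values were seen, had lower values in every hypoxic library than in any normoxic one, where, with the filter dropped, 18% of 30703 genes were called lower and 41.2% did not overlap between groups. KRT81 and KRT86 share sequence, so their values are not independent.

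KRT8 and KRT18, the simple pair, held the largest share of keratin mRNA in KYSE150. KRT8 measured 264, 338 and 265 FPKM against 321, 311 and 308. The difference was 0.13 (95% interval -0.13 to 0.38, adjusted p = 0.348). KRT18 measured 308, 373 and 283 against 375, 373 and 362, a difference of 0.21 (-0.05 to 0.47, adjusted p = 0.130). Normoxia replicate 2 lay inside or above the hypoxic range for both genes, and without it both were called higher, by 0.24 and 0.33 (adjusted p = 0.000187 and 0.000186). KRT18 was also called higher with median-of-ratios scaling (0.37, adjusted p = 0.0223), with a common sum (0.23, adjusted p = 0.0204) and with the trend on length and GC content removed (0.34, adjusted p = 0.000916). With that trend removed KRT8 was called too (0.22, adjusted p = 0.0179).

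**Figure D2:**
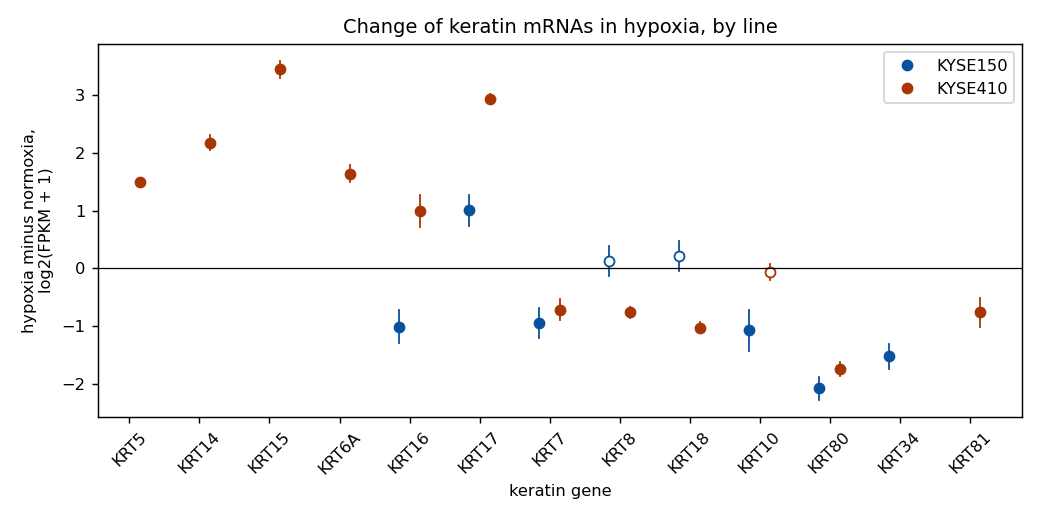
Hypoxia minus normoxia on the log2(FPKM + 1) scale for each keratin gene tested, by line, with 95% intervals from limma. Filled points were called at an adjusted p under 0.05 and open points were not. KRT80 and KRT7 lie below 0 in both lines and KRT17 above 0 in both, while KRT16 lies on opposite sides.

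In KYSE410, hypoxia went with more mRNA of every basal and stress keratin tested and with less of every simple keratin tested. Of 12 members tested, 6 rose and 5 fell, where 83.1% of 12054 genes tested were called, 31.2% higher and 51.9% lower. With so many genes called, a call alone says little about keratins. Over all genes the median log2 change was -0.21, against 2.18 for the 3 basal genes, 1.64 for the 3 stress genes tested and -0.76 for the 3 simple genes tested. Over all genes 37.6% of the calls were rises, 50.1% with median-of-ratios scaling and 26.8% with every library rescaled to a common sum. In the labels, the KYSE410 libraries carry suffix numbers 38 to 40 in normoxia and 56 to 58 in hypoxia. The KYSE150 libraries carry 50 to 52 in normoxia and 53 to 55 in hypoxia. What these number is not stated. They cannot be told apart from oxygen within either line, or from line at either oxygen level.

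KRT5 measured 170.8, 164.8 and 167.4 FPKM in KYSE410 normoxia and 482.5, 470.0 and 478.7 in hypoxia, a rise of 1.503 ± 0.03 on the log2 scale, or 0.92 with quantile normalization. KRT14 went from 12.9, 12.2 and 14.3 to 61.5, 63.2 and 63.9, and KRT15 from 15.9, 15.0 and 17.9 to 193, 178 and 191. No normoxic library reached a hypoxic one for these 3 genes. The type I members rose by the larger factors, 4.79-fold for KRT14 and 11.5-fold for KRT15 against 2.85-fold for KRT5. The ratio of KRT5 to KRT14 accordingly went from 12.8 ± 0.961 to 7.59 ± 0.218, and that of KRT15 to KRT14 from 1.24 ± 0.0125 to 2.98 ± 0.162 (SD, n = 3).

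Among the stress keratins, KRT17 measured 66.3, 70.1 and 71.7 FPKM in KYSE410 normoxia and 535, 537 and 545 in hypoxia, a 7.77-fold difference, and became the most abundant keratin of the line. KRT6A went from 4.53, 5.31 and 5.25 to 17.8, 18.3 and 17.2, a log2 change of 1.64 ± 0.06 (adjusted p = 5.96e-08). KRT16 went from 1.18, 1.61 and 1.88 to 4.36, 3.46 and 4.41, a change of 0.99 ± 0.12 (adjusted p = 6.53e-05). All 3 thus rose without overlap, where 84.6% of genes tested did not overlap. KRT6C, a near copy of KRT6A, was at 0, 0.0240 and 0.319 in normoxia and 0.707, 0.986 and 0.692 in hypoxia, below the filter. Reads shared with KRT6A were not separated here. Nor were reads shared by KRT16 and KRT14, and mean KRT14 went from 13.1 to 62.9 FPKM in these libraries.

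The simple keratins fell together in KYSE410. KRT18 measured 948, 923 and 1018 FPKM before and 479, 468 and 468 FPKM after hypoxia, a log2 change of -1.03 ± 0.04 (adjusted p = 6.42e-08). KRT8 measured 786, 803 and 836 against 499, 471 and 459, a change of -0.76 ± 0.04 (adjusted p = 3.64e-07). KRT7 measured 4.20, 5.31 and 5.13 against 2.62, 2.48 and 2.62, a change of -0.71 ± 0.08. The fall of the pair was smaller after median-of-ratios scaling, at -0.78 for KRT18 and -0.51 for KRT8, and larger with a common sum, at -1.27 and -1.005, and with quantile normalization, at -1.80 and -1.51. Both genes were called under each of those scalings.

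KRT80 fell in KYSE410 as well, from 50.9, 55.7 and 53.2 FPKM to 16.05, 14.3 and 15.6, a log2 change of -1.74 ± 0.05. KRT81 went from 2.02, 2.82 and 2.29 to 1.22, 0.837 and 0.905, a change of -0.76 ± 0.11. Its hypoxic mean of 0.986 FPKM was under the filter, so it was tested only through normoxia. KRT86, below the filter, was at 0.183 to 0.225 in normoxia and 0.0330 to 0.0449 in hypoxia, and KRT34 at 0.106 to 0.176 and 0.0577 to 0.136. KRT10 measured 27.4, 22.9 and 25.4 against 23.8, 23.7 and 24.5, and did not pass (-0.07, 95% interval -0.21 to 0.07, adjusted p = 0.334). Its direction depended on scaling: it was called higher with the median of ratios (0.17, adjusted p = 0.0360) and lower with a common sum (-0.30, adjusted p = 0.00238). KRT4 and KRT13 stayed at or below 0.141 FPKM in all 12 libraries.

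The difference between lines in the response to hypoxia was tested as the interaction of line and oxygen. Of 12 members tested, 9 had a more positive and 2 a more negative change in KYSE410, where 63.5% of 12894 genes tested were called, 27.5% positive and 36% negative. For KRT5, KRT14, KRT15 and KRT6A, no KYSE150 library exceeded 0.316 FPKM, so the differences of 1.40, 2.28, 3.24 and 1.65 rest on KYSE410 alone. KRT17 rose in both lines and by 1.93 ± 0.12 more in KYSE410 (adjusted p = 1.70e-07). KRT16, which fell in KYSE150 and rose in KYSE410, differed by 2.0 ± 0.18 (adjusted p = 2.40e-06). Its KYSE410 values were low, and its split from KRT14, which rose in KYSE410, is uncertain.

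The simple pair differed the other way, by -1.24 ± 0.12 for KRT18 and -0.89 ± 0.12 for KRT8 (adjusted p at most 6.58e-05). KRT10, which fell in KYSE150 and was not called in KYSE410, differed by 1.00 ± 0.18 (adjusted p = 0.000501), or 0.81 without KYSE150 normoxia replicate 2. KRT80 fell in both lines, and the difference of 0.35 (adjusted p = 0.0101) was lost with a common sum (0.10, adjusted p = 0.456). KRT81 differed by 0.47 (adjusted p = 0.0136) and reached the filter only through KYSE410. KRT7 did not pass for the response (0.23, 95% interval -0.06 to 0.53, adjusted p = 0.150, or 0.12 without KYSE150 normoxia replicate 2), although it was called with quantile normalization (0.54, adjusted p = 0.000418).

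After hypoxia some keratins lay closer together in the lines than before and others further apart. Between normoxia and hypoxia the log2 difference between lines went from 7.40 to 8.79 for KRT5, 3.68 to 5.96 for KRT14, 4.0 to 7.25 for KRT15, 2.58 to 4.23 for KRT6A and 0.27 to 0.74 for KRT81. KRT17 measured 431, 443 and 406 FPKM in KYSE150 and 535, 537 and 545 in KYSE410, so the line with the lower normoxic level had the higher hypoxic one, by 0.34 ± 0.09 on the log2 scale (adjusted p = 0.00352), or 0.19 with a common sum and 0.11 with quantile normalization. KRT16 was at 3.99, 4.12 and 3.65 in KYSE150 and 4.36, 3.46 and 4.41 in KYSE410, a difference of 0.04 (95% interval -0.24 to 0.32, adjusted p = 0.782). KRT10 differed by 0.11 (-0.17 to 0.39, adjusted p = 0.456). Both were called with the trend on length and GC content removed (0.35 and 0.27, adjusted p = 0.00841 and 0.0209). For KRT18 the difference between lines was 1.59 in normoxia and 0.35 in hypoxia, and for KRT8 it was 1.49 and 0.60. With quantile normalization the hypoxic difference of KRT18 was 0.056 and was not called (adjusted p = 0.372). The changes in these differences are the interactions given above. Of the 12 members tested, 8 were higher and 2 lower in hypoxic KYSE410, where 80.6% of genes tested were called, 36.3% higher and 44.3% lower, and 86% did not overlap between the lines. Among the 8, KRT5, KRT14, KRT15, KRT6A and KRT81 again reached the filter only through KYSE410. KRT10 was among the members without overlap, although it was not called.

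The whole keratin pool changed less than its parts. Summed over all 39 members, it was 1212 ± 166 FPKM in KYSE150 normoxia, 1281 ± 35.4 in KYSE150 hypoxia, 2131 ± 76.3 in KYSE410 normoxia and 2281 ± 33.2 in KYSE410 hypoxia (SD, n = 3). The hypoxic values lay within the normoxic range of 1105 to 1403 in KYSE150 and above the normoxic range of 2083 to 2219 in KYSE410. As a share of all FPKM, keratins made up 0.315%, 0.337%, 0.601% and 0.544%, so in KYSE410 the share was lower in hypoxia although the sum was higher. Keratin pseudogenes of the same names added between 4.77 and 8.38 FPKM per library.

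**Figure D3:**
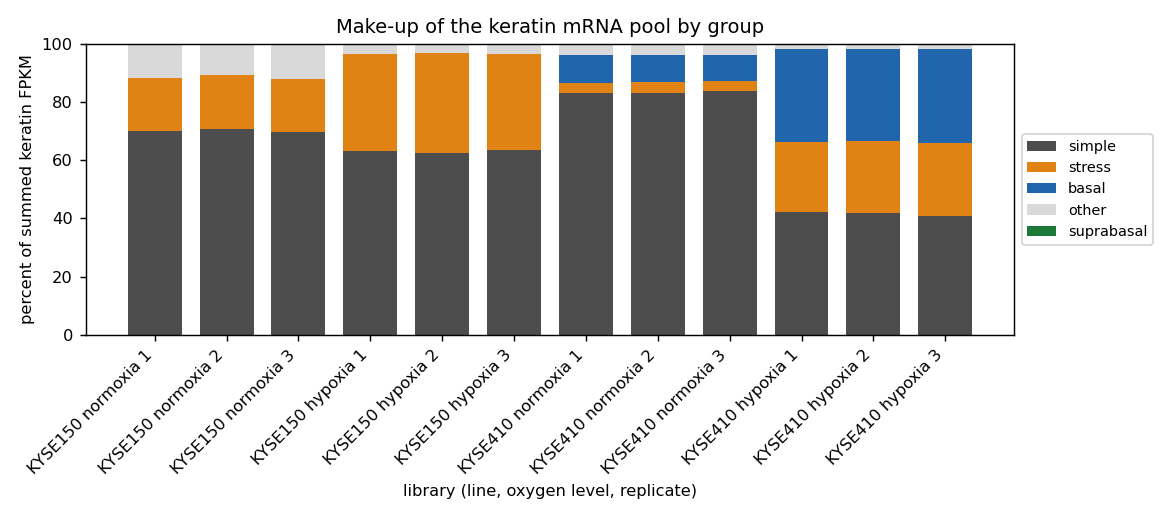
Share of summed keratin FPKM held by each keratin group in each of the 12 libraries, in percent. In KYSE410 the simple share goes from 83.1% to 83.8% in normoxia to 40.9% to 42.3% in hypoxia, and the suprabasal share is too small to be seen.

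The make-up of the pool differed by group. In KYSE410 the simple keratins held 83.4% ± 0.365 of keratin FPKM in normoxia and 41.7% ± 0.715 in hypoxia, while the basal share went from 9.25% ± 0.274 to 31.9% ± 0.360 and the stress share from 3.57% ± 0.127 to 24.6% ± 0.490. In KYSE150 the simple share went from 70.2% ± 0.468 to 63.0% ± 0.639 and the stress share from 18.3% ± 0.285 to 33.6% ± 0.723. The basal share of KYSE150 was 0.0149% and 0.0270%. Keratins outside the 4 groups, chiefly KRT80 and KRT10, went from 11.5% to 3.33% in KYSE150 and from 3.84% to 1.82% in KYSE410. KRT17 alone held 17.6% and 33.3% of the KYSE150 pool and 3.26% and 23.6% of the KYSE410 pool, in normoxia and hypoxia.

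Ratios between keratins of the same type, which do not pair with each other, were also read. In KYSE410 KRT5 stood at 0.208 ± 0.00867 of KRT8 in normoxia and 1.00 ± 0.0386 in hypoxia, so the basal and the simple type II keratin were then at the same level. KRT17 stood at 0.0721 ± 0.00331 of KRT18 in normoxia and 1.14 ± 0.0241 in hypoxia. In KYSE150, KRT17 over KRT18 went from 0.663 ± 0.0204 to 1.15 ± 0.0333, and KRT7 over KRT8 from 0.837 ± 0.0106 to 0.396 ± 0.0113 (SD, n = 3). The hypoxic ratio of KRT17 to KRT18 was thus nearly the same in both lines.

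**Figure D4:**
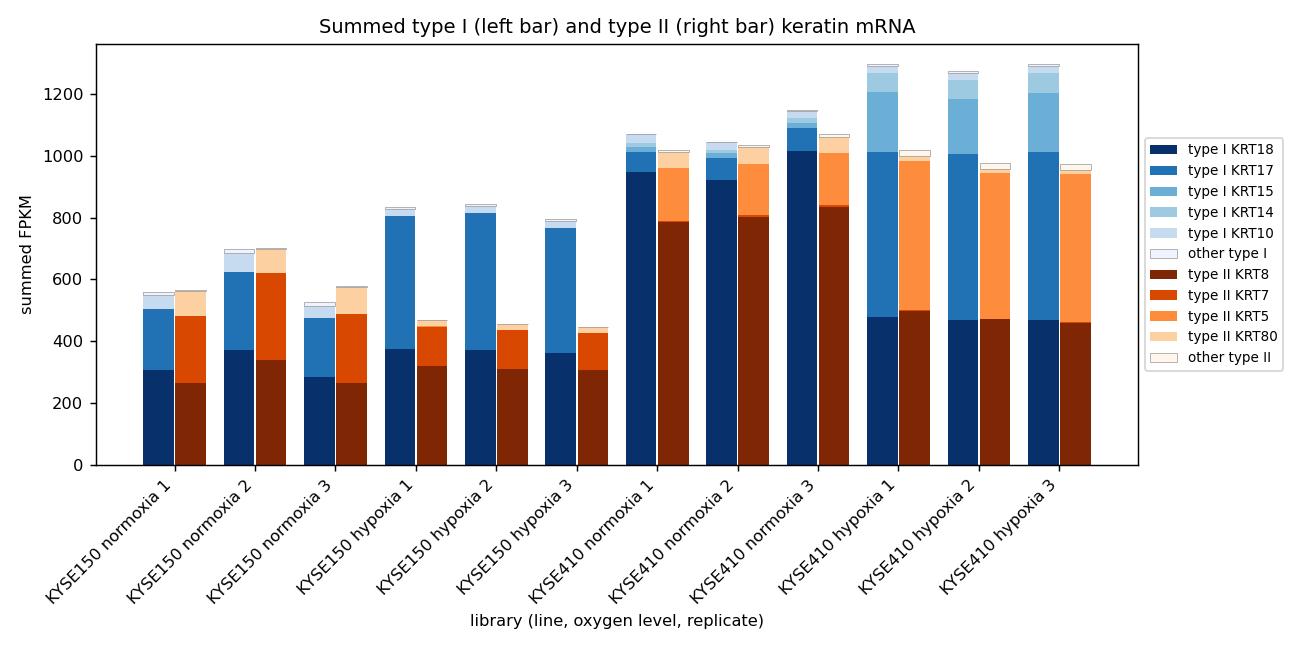
Summed FPKM of type I keratins (left bar of each pair) and type II keratins (right bar) in each of the 12 libraries, stacked by gene. In KYSE150 normoxia the paired bars are close in height, and in KYSE150 hypoxia the type I bar is 1.78 to 1.85 times the type II bar.

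Because the proteins work in pairs, the balance of type I and type II mRNA was also set out. The ratio of summed type I to summed type II FPKM was 0.987, 0.995 and 0.908 in KYSE150 normoxia and 1.78, 1.85 and 1.79 in hypoxia. In KYSE410 it was 1.05, 1.01 and 1.07 in normoxia and 1.27, 1.30 and 1.33 in hypoxia. Both normoxic groups were near 1, and the hypoxic libraries of each line lay above all its normoxic ones. In KYSE150 the mean type I sum went from 595 to 825 FPKM and the mean type II sum from 617 to 457. In KYSE410 they went from 1089 to 1290 and from 1042 to 991. Without KRT17 the ratio was 0.619 ± 0.0363 and 0.871 ± 0.0108 in KYSE150 and 0.978 ± 0.0340 and 0.758 ± 0.0132 in KYSE410. Leaving out this type I gene lowers the normoxic ratio too, so it does not show how much of the rise KRT17 made up. So leaving out KRT17 turned the direction in KYSE410, while in KYSE150 the ratio still went up, with KRT7 and KRT80 lower on the type II side. These sums are a description with no test, and mRNA ratios give no protein ratio.

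RefSeq promoter sequences (GRCh38.p14) were matched for 20 of the 39 members. Those of 4 tested members are printed, as the 100 bases before the transcription start of the matched entry on the minus strand. The TATA box letters TATAAA are in capitals. The KRT5 and KRT8 windows, and most of the KRT34 window, lie inside the annotated gene spans. The KRT8 window ends at 52926569 and its gene at 52949954, so a further start is annotated upstream. Which start these cells used was not tested. KRT5 rose and KRT8 fell in hypoxic KYSE410, and KRT10 and KRT34 fell in hypoxic KYSE150.
KRT5 (chr12:52520395-52520494): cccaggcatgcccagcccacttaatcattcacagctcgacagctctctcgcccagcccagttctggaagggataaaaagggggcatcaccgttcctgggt
KRT8 (chr12:52926470-52926569): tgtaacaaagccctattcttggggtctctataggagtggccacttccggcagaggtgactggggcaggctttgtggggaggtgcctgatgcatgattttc
KRT10 (chr17:40822615-40822714): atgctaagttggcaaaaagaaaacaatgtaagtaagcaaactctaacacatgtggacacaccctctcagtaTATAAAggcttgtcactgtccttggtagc
KRT34 (chr17:41382307-41382406): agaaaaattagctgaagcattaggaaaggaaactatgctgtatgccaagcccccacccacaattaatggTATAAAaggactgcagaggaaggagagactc

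In KRT10 the motif began 29 bases before the start and in KRT34 it began 31 bases before. Over the 250 bases before the start, on both strands, TATAAA was found in 10 of 23 keratin promoters, against 10.7% of 35116 promoters of the same length. Of these 10 keratin genes, only KRT10 and KRT34 had a group mean of at least 1 FPKM. Near matches, such as gataaa in the KRT5 bases above, were not counted. The core of the hypoxia response element, ACGTG or GCGTG, was found in 8 of 23 keratin promoters, of 6 genes (KRT75, KRT20, KRT39, KRT40, KRT33A and KRT9, none with a group mean of 1 FPKM) against 43.2% of all promoters. The AP-1 site TGAGTCA or TGACTCA was found in 0 of 23 keratin promoters against 4.2% of all. These are matches of letters in a window, and no binding was measured.

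Proteins that tie keratin filaments to junctions were read from a list of 12 linkers and plaque proteins. In KYSE150, 6 of 11 tested rose and 0 fell, where 23.5% of all genes tested were called higher and 38.8% lower, with a median of 0.39 against -0.13 for all genes. PPL (periplakin), PKP3 (plakophilin 3), JUP (plakoglobin) and DSP (desmoplakin) rose by 0.95, 0.91, 0.89 and 0.70. The outlying normoxia replicate 2 was the lowest normoxic library for DSP (28.2 FPKM, against 53.7 in replicate 3) and PPL (5.28 against 6.75). It was also lowest for PKP2 (2.75 against 3.75), whose change of 0.39 is the median. These changes are thus larger than without it. For JUP and PKP3 it was the highest, and for EVPL it lay between the others. No fit without it is given for this list. In KYSE410, where 31.2% were called higher and 51.9% lower, 5 of 10 rose and 5 fell, with JUP and PKP3 up by 1.09 and 1.04, and PPL and the cytolinker PLEC (plectin) changed by -1.11 and -1.03. PPL therefore moved in opposite directions, with a difference in response of -2.07 ± 0.12 (adjusted p = 1.06e-07).

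Of 16 non-keratin intermediate filament genes, 4 of 11 tested rose and 4 fell in KYSE150, and 2 of 5 rose and 1 fell in KYSE410, where 62.3% and 83.1% of all genes tested were called. With median-of-ratios scaling 6 rose and 3 fell in KYSE150, and 3 rose and 0 fell in KYSE410. VIM, vimentin of mesenchymal cells, measured 254, 307 and 248 FPKM in KYSE150 normoxia and 559, 543 and 544 in hypoxia, the latter above every keratin in the same libraries. In KYSE410 it went from 0.532, 0.459 and 1.79 to 4.14, 3.79 and 3.52. There VIM reached the filter only through hypoxia, so the direction in that line was fixed by entry. The log2 changes of 1.03 and 1.38 were not shown to differ (0.36, 95% interval -0.23 to 0.95, adjusted p = 0.264). LMNA, which encodes the nuclear lamins A and C, rose by 0.54 and 0.99.

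Few late squamous differentiation genes passed the filter. Of 30 on the list, 18 were in the tables, and 1 of 4 tested rose and 2 fell in KYSE150, while 3 of 5 rose and 2 fell in KYSE410 (3 and 1 with median-of-ratios scaling). The shares of all genes tested that were called are those given above, 62.3% and 83.1%. CSTA, the cornified envelope protein cystatin A, changed by -0.75 in KYSE150 and 0.91 in KYSE410, and FLG, filaggrin, by -1.07 in KYSE410. FLG passed the filter there only through normoxia (mean 2.66 against 0.736 FPKM in hypoxia), so its direction was fixed by entry. IVL, involucrin, had a mean of at most 0.00900 FPKM in any group.

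Of 20 regulators of keratin and squamous genes, 3 of 9 tested rose and 5 fell in KYSE150, and 5 of 16 rose and 9 fell in KYSE410 (7 and 6 with median-of-ratios scaling), beside 62.3% and 83.1% called over all genes tested. TP63, a master factor of basal squamous cells, measured 33.6, 33.3 and 35.7 FPKM in KYSE410 normoxia and 49.7, 51.3 and 51.04 in hypoxia, a rise of 0.56 ± 0.04, and at most 0.361 FPKM in KYSE150. The line with basal keratins was thus the line with TP63 mRNA, and SOX2, another squamous factor, had a mean of at most 0.0627 FPKM in each of the 4 groups. ELF3, an epithelial ETS factor, rose in both lines, by 1.72 and 1.54. GRHL1, a grainyhead factor, changed by -2.02 in KYSE410, where it passed the filter only through normoxia, so that direction was fixed by entry. PITX1 changed by -1.21 in KYSE150 and -1.59 in KYSE410.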

How the data were processed

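The authors deposited FPKM values in 1 table for each line, and this unit was inferred from the values, since FPKM times the longest GENCODE transcript length summed to 0.919 to 1.02 times the total that this unit implies. Per the submitters' processing notes, HISAT2 2.2.1, fastp 0.22.0 and bcl2fastq 2.20 were used with the build hg38. The strand setting, annotation and quantifier were not given in the sources used here. Low values did not fall on common steps between libraries, so depth is unknown and counting error could not be given.

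Genes averaging at least 1 FPKM over the fitted libraries were tested in R 4.3.3 with limma 3.58.1 (moderated by empirical Bayes, with a trend on the mean) on log2(FPKM + 1), within each line and jointly over 12 libraries. This scale understates the change of low genes. P-values were adjusted by Benjamini-Hochberg over all genes tested and called under 0.05. Only keratin rows and genes of the other lists were read out. Members and lists were chosen with earlier results of these data known. The 13 genes of the 4 keratin groups and each member with a group mean of at least 1 FPKM were named, and from each other list up to 4 genes per comparison with the largest called changes without overlap. Not every gene so chosen is reported here. TP63, SOX2 and IVL were named besides as known markers, and KRT6C and KRT83 after their values were seen. Shared sequence was counted as 50-base words of GENCODE 29 transcripts. The fits were tested on simulated data. Replicate numbers did not pair libraries (correlations of same-numbered deviations -0.069 to 0.084). Values were joined and plotted with pandas 2.3.3, numpy 2.4.6 and matplotlib 3.10.9 in Python 3.11.15. Alternatives covered scaling, pseudocount, filters, threshold, length and GC content, the replicate block, genes in both tables and leaving out each library.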

Additional observations from a re-analysis of the deposited data

Results flagged for a closer look

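The test of the difference in response between lines (limma, interaction of line and oxygen) called 11 of the 12 keratins tested, where 63.5% of all genes tested were called. KRT5, KRT14, KRT15 and KRT6A were tested only through their KYSE410 values, and their differences rest on that line alone. In log2 units, KYSE410 minus KYSE150, the differences were 1.40 for KRT5, 2.28 for KRT14, 3.24 for KRT15, 1.65 for KRT6A, 2.0 for KRT16 and 1.93 for KRT17. They were 1.00 for KRT10, 0.35 for KRT80 and 0.47 for KRT81. The simple pair gave -0.89 for KRT8 and -1.24 for KRT18. Among the stress keratins, only KRT16 and KRT17 were above 1 FPKM in every library of both lines. KRT16 was at only 1.18 to 1.88 FPKM in KYSE410 normoxia, and its split from KRT14 is uncertain. KRT80 and KRT81 did not pass at an adjusted p under 0.01, and KRT81 reached the filter only through KYSE410.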

How the results depend on the processing

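Of the values for single keratins under the alternatives, 1052 kept their direction and side of the threshold, 11 became called, 11 lost the call and 8 reversed. In KYSE150, 1 keratin rose as reported, 2 with median-of-ratios scaling, a common sum or no filter, 3 with length and GC content removed, and 1 to 3 when each library was left out, the 3 being KRT17, KRT18 and KRT8 without normoxia replicate 2. The 5 falls of 8 tested became 9 of 30 with no filter, where 18% of all genes were called lower. In KYSE410 the 5 falls became 3 at a mean of at least 5 FPKM, where fewer genes were tested. Positive differences in response went from 9 of 12 tested to 15 of 39 with no filter. Keratins lower in KYSE410 went from 5 of 12 to 10 of 39 in normoxia with no filter. In hypoxia they went from 2 of 12 to 7 of 39 with no filter, and to 1 with quantile normalization or with length and GC content removed. These larger counts are smaller shares of the keratins tested, and all-gene shares with no filter are given only for KYSE150. Reversals were small. KRT10 in KYSE410 was 0.17 with the median of ratios, 0.080 with quantile normalization and 0.042 with length and GC content removed. Between lines in hypoxia, KRT10 was -0.031 and KRT16 -0.074 with a common sum, KRT16 was -0.0085 to 0.130 when each library was left out (below 0 without KYSE410 hypoxia replicate 1 or 3), and KRT80 was 0.083 with length and GC content removed. The cause of these shifts was not tested beyond the construction named. With the replicate block, which the correlations do not support, keratins higher in KYSE410 in normoxia numbered 6 in place of 7, since KRT81 lost its call (adjusted p = 0.0542). The other counts of keratins kept their values of 1 and 5, 6 and 5, 9 and 2, 5, and 8 and 2. The ratio of type I to type II sums, left out by library after the data were seen, was 0.948 to 0.991 and 1.78 to 1.82 in KYSE150 and 1.03 to 1.06 and 1.29 to 1.32 in KYSE410. DESeq2 needs counts and was not run.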
